A study of Mus musculus with 33 samples.

Results

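The 37 genes described here take glucose into the cell, split it to pyruvate and lactate, or belong to the wider response to low oxygen, and they were chosen by name from the 35349 gene symbols of a table of RNA sequencing counts. They comprised 17 glycolytic enzymes, 8 genes of glucose and lactate transport and flux control, and 12 other hypoxia response genes. The samples were whole mouse kidneys of the embryo, collected at day 11.5 (E11.5) or day 15.5 (E15.5), that were wild type, heterozygous or, at E11.5 alone, knockout for Six2, which encodes a transcription factor that holds nephron progenitors in an undifferentiated state. At E11.5 there were 6 wild-type, 5 heterozygous and 5 knockout specimens, called embryos below. At E15.5 there were 4 wild-type and 4 heterozygous specimens. Females numbered 4, 2 and 4 among the E11.5 groups in that order, and 1 in each group at E15.5, the others being male. The labels do not describe the Six2 alleles, and the titles of 4 of the 8 heterozygous libraries at E15.5 carry the code GCE without saying what it stands for. They also do not say whether a specimen was 1 animal or a pool, so the p-values measure the spread between specimens.

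Glycolysis turns glucose into pyruvate through a chain that starts with hexokinase, is held in check at phosphofructokinase and ends with pyruvate kinase, and lactate dehydrogenase then turns pyruvate into lactate. In low oxygen the prolyl hydroxylases encoded by Egln1 and Egln3 lose activity, the protein of Hif1a is no longer destroyed, and it raises transcription of most enzymes of the chain together with genes for vessel growth, matrix collagen and acid handling. HIF1A is governed largely through protein stability, so the level of its RNA is not a reading of its activity. Several steps have isozymes encoded by separate genes, such as Hk1 and Hk2, Eno1 and Eno2, or Ldha and Ldhb, and tissues exchange 1 isozyme for another as they mature. Undifferentiated nephron progenitors are known for a high use of glycolysis, which falls as nephrons form.

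HIF binds a short DNA core that reads ACGTG or GCGTG on either strand, and upstream sequences are shown for 5 members whose RNA changed in the knockout, to let a reader see where such letters stand. Each run covers the 250 bases before a transcription start in RefSeq (build GRCm38.p6), written 5′ to 3′ in the direction of the gene, with every match in capitals, on the strand shown or as its reverse complement. Hk2 encodes the inducible hexokinase (chr6:82774455-82774704, minus strand), Ldha the lactate dehydrogenase subunit of glycolytic tissues (chr7:46845554-46845803, plus strand), Slc16a3 the lactate exporter MCT4 (chr11:120948817-120949066, plus strand), Pgk1 phosphoglycerate kinase (chrX:106186850-106187099, plus strand) and Eno2 the neuronal enolase (chr6:124769674-124769923, minus strand).
Hk2: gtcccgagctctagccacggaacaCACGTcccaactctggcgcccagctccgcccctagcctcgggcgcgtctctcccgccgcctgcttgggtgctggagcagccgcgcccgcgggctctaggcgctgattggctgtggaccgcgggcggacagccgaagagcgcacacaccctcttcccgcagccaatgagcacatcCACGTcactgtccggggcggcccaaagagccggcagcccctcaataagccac
Ldha: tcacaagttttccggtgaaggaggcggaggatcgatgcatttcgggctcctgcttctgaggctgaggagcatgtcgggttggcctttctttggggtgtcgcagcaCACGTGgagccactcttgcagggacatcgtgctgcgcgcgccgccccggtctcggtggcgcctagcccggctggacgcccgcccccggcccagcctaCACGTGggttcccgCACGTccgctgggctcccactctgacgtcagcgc
Slc16a3: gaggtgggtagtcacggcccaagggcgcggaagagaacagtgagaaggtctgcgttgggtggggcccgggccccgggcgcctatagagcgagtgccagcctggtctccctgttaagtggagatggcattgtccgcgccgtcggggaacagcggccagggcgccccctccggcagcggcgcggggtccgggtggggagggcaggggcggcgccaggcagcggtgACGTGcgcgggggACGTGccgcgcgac
Pgk1: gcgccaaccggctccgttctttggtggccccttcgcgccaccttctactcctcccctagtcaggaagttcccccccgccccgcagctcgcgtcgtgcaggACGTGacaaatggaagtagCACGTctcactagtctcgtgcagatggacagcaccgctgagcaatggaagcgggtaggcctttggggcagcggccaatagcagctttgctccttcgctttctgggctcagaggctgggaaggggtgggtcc
Eno2: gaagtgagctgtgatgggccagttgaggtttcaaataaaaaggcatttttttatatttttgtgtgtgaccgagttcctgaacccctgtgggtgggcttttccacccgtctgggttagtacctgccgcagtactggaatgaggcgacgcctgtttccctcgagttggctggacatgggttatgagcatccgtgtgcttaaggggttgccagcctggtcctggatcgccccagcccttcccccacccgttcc

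The 5 genes held 2, 5, 2, 2 and 0 matches in the order shown. The 3 members with 0 matches in every window were Gpi1 and Tpi1, called lower in knockout against wild-type kidneys, and Eno2, called higher. Windows with 4 or more matches stood before Ldha and Bnip3, called lower, and before Slc16a1, Pdk3 and Ankrd37, not called. Whether the matches go with the direction of change was not tested. A CACGTG, as at 2 places in Ldha, reads the same on both strands, counts as 2 matches, and is also the core of another motif, the E-box. Of the 37 members, 35 had an entry among these promoters, and Slc2a3 and Ndrg1 had none. At least 1 match stood in a 250-base window of 32 of the 35, or 91.4%, against 41.5% of all 27025 genes. The windows were not matched for base composition, and a match is a run of letters, not a measured binding site.

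Total counts per library, in units of 1e+06 reads, ran from 10.82 to 42.07. Six2 itself ran from 19.5 to 33.1 CPM (counts per 1e+06 reads, on scaled library sizes) in wild types at E11.5, from 9.90 to 17.0 CPM in heterozygotes and from 0.291 to 0.666 CPM in knockouts, so the groups were ordered as labelled. The summed level of 9 other nephron progenitor markers was 905 to 1390 CPM in wild-type and 414 to 520.5 CPM in knockout embryos, with none of the 9 at 0 in either group, and 7 of the 9 were called lower. The ureteric bud markers, of the epithelium that branches into the collecting ducts, summed to 199.7 to 341 CPM in wild-type and 332 to 474 CPM in knockout embryos, 4 of 7 were called higher and none was at 0. Macrophage markers were called higher in 7 of 7. The part of these marker changes in the members' results was not tested. In whole kidneys, fewer cells of a type and less RNA per cell cannot be told apart, and this holds for every genotype comparison below.

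Features of the E11.5 libraries bear on the results. Ribosomal and related repeat counts took 21.3 to 27.3% of wild-type, 4.19 to 19.4% of heterozygous and 1.46 to 13.2% of knockout libraries in batch 1, against 0.996 to 1.42% of all libraries in batch 2. The titles carry a prefix (G1, G3, G4, G5 or G6) whose meaning the labels do not give, and G6 held only knockouts, replicates 2, 3 and 5. G1 and G3 held no knockout, so a fit with the prefix as a block compares knockouts through replicates 1 (G5) and 4 (G4) alone. Knockout replicate 4 was run in batch 2 and every other G4 embryo in batch 1. With the prefix in place of batch, its difference from them therefore cannot be told apart from batch. Wild-type replicate 6 stood apart: 29 genes were at 10 CPM or more there and over 5 times the level of every other E11.5 embryo, against at most 2 genes for any other embryo. They included Krt5 (33.1 CPM, at most 3.203 elsewhere) and Trp63 (15.9 CPM, at most 0.785 elsewhere), genes of stratified epithelia, Zic1 (10.2 CPM, at most 0.723 elsewhere), a gene of the neural tube, and 1 member, Slc2a3. Krt5, Trp63 and Zic1 were picked as examples after their values were seen.

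Per kilobase of gene length, pyruvate kinase (Pkm) was the most abundant glycolytic enzyme in wild-type kidneys at E11.5, at a level of 586 ± 112 CPM per kb (SD, n = 6). Aldolase A (Aldoa), at 194 ± 29.3 CPM per kb, and Ldha, at 184 ± 30.0 CPM per kb, came next and did not differ beyond their spread. Triose phosphate isomerase (Tpi1) was at 148 ± 28.0, Eno1 at 82.3 ± 12.5, Gapdh at 79.2 ± 6.51 and Ldhb at 78.5 ± 8.94 CPM per kb, the last 3 again within their spread. Eno2 was at 1.29 ± 0.206 and the tumour-associated carbonic anhydrase Car9 at 1.45 ± 0.488 CPM per kb. Reads of Gapdh, Pgam1, Pgk1, Eno1, Aldoa, Ldha, Tpi1 and Pkm can be shared with near-identical processed pseudogenes, and how such reads were counted is not given in the sources used here, so these levels are uncertain.

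Loss of both copies of Six2 at E11.5 went with lower RNA of most glycolytic enzymes. Of the 17, 12 fell against wild type, 1 rose (Eno2) and 4 did not pass the test. Among the transport and flux control genes 4 of 8 fell, and among the other hypoxia response genes 3 of 12. In all 19 of the 37 members were lower, where 4.03% of the 16141 genes tested were lower, and 1 was higher, where 3.06% were. The median log2 fold change was -0.33 for the enzymes, -0.38 for transport and flux control and -0.07 for the other hypoxia genes, against -0.0022 for all genes tested. These calls come from a fit with sex and batch as terms and depend on it. With the title prefix in place of batch 0 members were called (492 genes of all), and with batch left out 10 (439 of all). Within batch 1 alone 1 member was called (265 genes of all) and within batch 2 alone 2 members (168 of all). In each batch 13 of the 17 enzymes had an estimate below 0, where the median over all genes was 0.0047 in batch 1 and 0.0077 in batch 2.

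**Figure D1:**
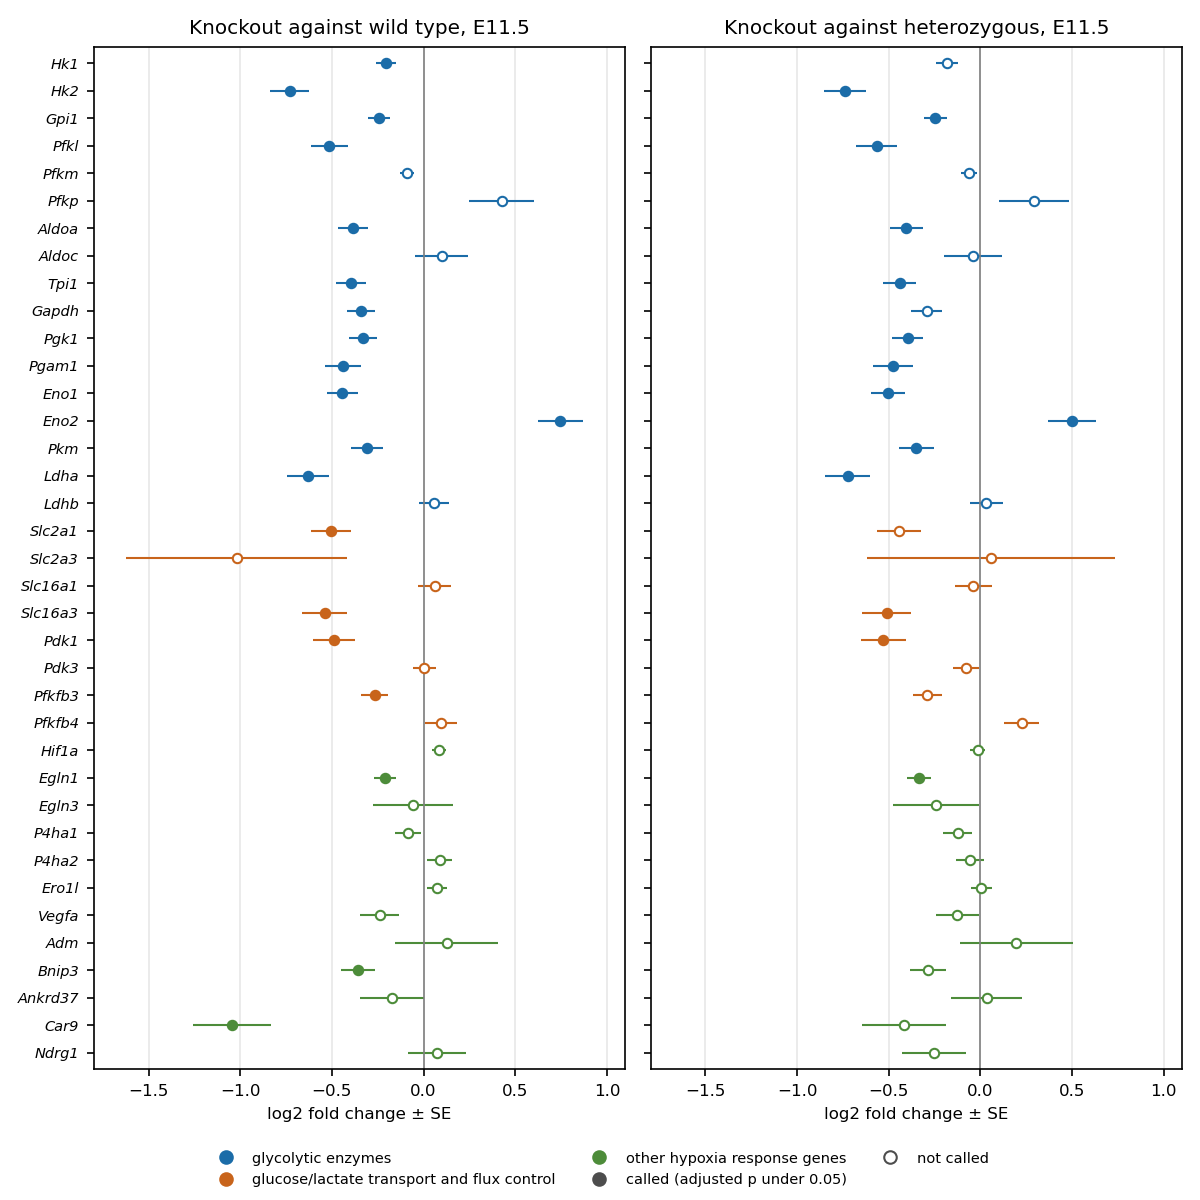
Log2 fold changes with standard errors (SE) of the 37 members in knockout against wild-type (left) and knockout against heterozygous kidneys (right) at E11.5; filled points passed the test. Most enzymes lie left of 0, from Hk2 at -0.73 to Hk1 at -0.21 among those called lower against wild type, and Eno2 lies to the right at 0.75.

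At the first step, Hk2 (ENSMUSG00000000628.10, chromosome 6, 82725025 to 82774454) ran from 87.1 to 117 CPM with a median of 93.5 in the 6 wild-type embryos. It was 100, 108, 117, 78.6 and 87.8 CPM in heterozygous and 70.3, 50.9, 55.2, 57.3 and 55.4 CPM in knockout embryos. No knockout reached any embryo of the other groups. The log2 fold change against wild type was -0.73 (SE 0.10, adjusted p = 0.000292), or 0.602 times the level, and within the batches it was -0.64 and -0.81. The second hexokinase, Hk1, was lower by less, with a log2 fold change of -0.21 (SE 0.06, adjusted p = 0.0367), a call lost in 8 of the 16 fits that each left out 1 embryo.

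Phosphofructokinase of the liver type, Pfkl (chromosome 10, 77986947 to 78010083), the committed step, was 268 to 436 CPM (median 297) in wild-type and 263, 170, 185, 241 and 227 CPM in knockout embryos. The groups did not overlap, though knockout replicate 1 came close to the lowest wild type, and the highest wild type was replicate 6. This gave a log2 fold change of -0.51 (SE 0.10, adjusted p = 0.00451), and -0.44 without wild-type replicate 6. The muscle and platelet types did not pass the test: Pfkm had an estimate of -0.09 (SE 0.04) and Pfkp of 0.43 (SE 0.18).

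In the middle of the chain, Gpi1, Aldoa, Tpi1, Gapdh, Pgk1 and Pgam1 were all called lower, with log2 fold changes from -0.24 to -0.44. Pgam1 (chromosome 19, 41911923 to 41918660), phosphoglycerate mutase, ran from 36.0 to 73.2 CPM (median 49.3) in wild-type embryos and was 37.5, 27.3, 28.3, 39.9 and 46.5 CPM in knockouts. These ranges overlap over all embryos, but in each batch every knockout but replicate 1 lay below every wild type. Its log2 fold change was -0.44 (SE 0.10, adjusted p = 0.0113), but -0.014 with the title prefix in place of batch. Aldoc, the brain aldolase, was not called at 0.10 (SE 0.15).

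The enolases moved in opposite directions. Eno1 (chromosome 4, 150236721 to 150248879), the broadly expressed form, was 378 to 570.2 CPM (median 432) in wild-type and 362, 292, 297, 322 and 348 CPM in knockout embryos, with no overlap. Its log2 fold change was -0.44 (SE 0.08, adjusted p = 0.00326). Eno2 (chromosome 6, 124760053 to 124769673) was 5.04 to 7.49 CPM (median 5.94) in wild-type and 8.66, 11.5, 9.74, 10.5 and 10.1 CPM in knockout embryos, so that every knockout lay above every wild type. Its log2 fold change was 0.75 (SE 0.12, adjusted p = 0.000998). Eno2 made up 1.56 ± 0.328% (SD, n = 6) of both enolases per kilobase in wild-type and 3.48 ± 0.608% (SD, n = 5) in knockout embryos, and Eno1 remained the main enolase in every embryo. Eno2 is known from neurons, and the summed level of 6 neuron and glia markers ran from 43.1 to 137 CPM in wild-type embryos, from 51.5 to 80.1 CPM in heterozygotes and from 92.6 to 121 CPM in knockouts, with no marker at 0. Their part in the rise of Eno2 was not tested.

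At the end of the chain, Ldha (chromosome 7, 46841475 to 46855627) was 461 to 718 CPM (median 526) in wild-type embryos and 532, 580, 563, 556 and 686 CPM in heterozygotes. Knockouts had 447, 295, 290.1, 350 and 377 CPM, all below every wild type and heterozygote, with replicate 1 the nearest. The log2 fold change against wild type was -0.63 (SE 0.11, adjusted p = 0.00227). Ldhb, whose subunit is known from tissues that take up lactate, was not called, with an estimate of 0.06 (SE 0.08). Ldhb made up 30.0 ± 2.63% (SD, n = 6) of both subunits per kilobase in wild-type and 41.3 ± 4.92% (SD, n = 5) in knockout embryos. Pkm, with a log2 fold change of -0.31 (SE 0.09, adjusted p = 0.0385), was called lower, a call lost in 11 of the 16 fits that each left out 1 embryo.

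**Figure D2:**
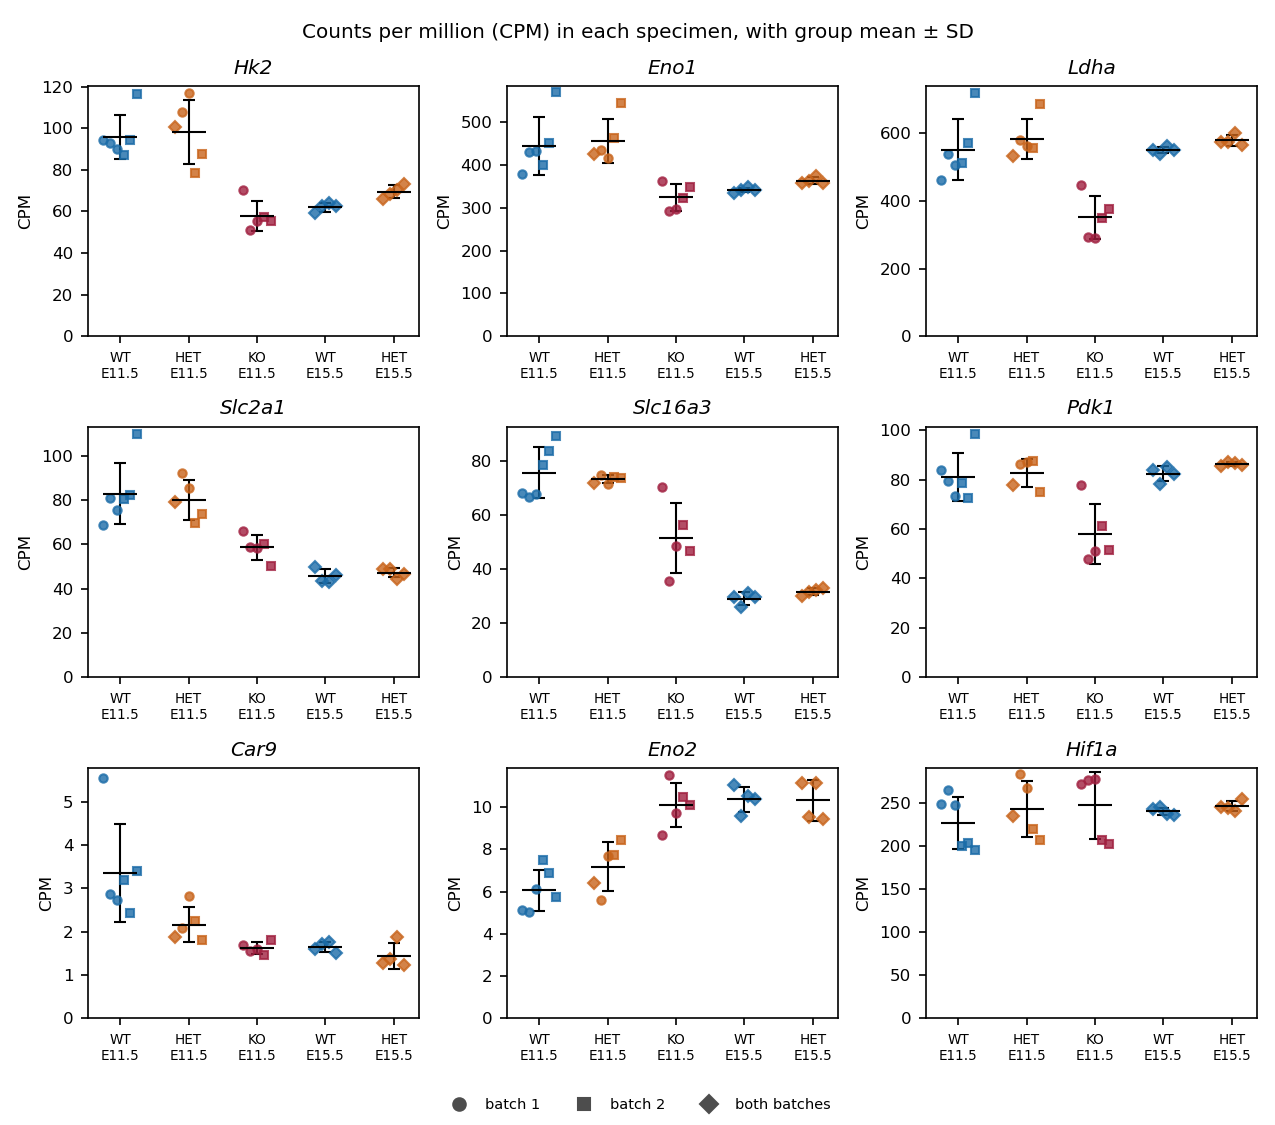
CPM of 9 members in each specimen (points, shaped by batch) with the group mean and SD (bars), for wild-type (WT), heterozygous (HET) and knockout (KO) kidneys at both stages; each vertical axis starts at 0. Knockout embryos lie lowest at E11.5 for Hk2, Eno1, Ldha and Car9 and highest for Eno2, while Hif1a follows the batch.

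Of the 4 carriers of glucose and lactate among the members, 2 were called lower in knockouts. Slc2a1 (chromosome 4, 119108711 to 119137983), the glucose transporter GLUT1, was 69.0 to 110 CPM (median 80.6) in wild-type and 66.0, 58.6, 58.5, 60.0 and 50.2 CPM in knockout embryos, with no overlap. Its log2 fold change was -0.50 (SE 0.11, adjusted p = 0.00885), but -0.24 within batch 1 and -0.69 within batch 2. Slc16a3 (chromosome 11, 120948480 to 120960868) was 66.8 to 89.4 CPM (median 73.4) in wild-type and 70.3, 35.6, 48.7, 56.3 and 46.9 CPM in knockout embryos. Knockout replicate 1 lay inside the wild-type range and the other 4 below it. With sex and batch in the fit the log2 fold change was -0.54 (SE 0.12, adjusted p = 0.0116), and -0.14 with both title prefix and batch as terms, a fit added after the data were seen.

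Pdk1 (chromosome 2, 71873224 to 71903858), a kinase that keeps pyruvate out of the mitochondrion, ran the same way: 72.6 to 98.6 CPM (median 79.0) in wild-type and 78.0, 48.0, 51.2, 61.4 and 51.5 CPM in knockout embryos. Again knockout replicate 1 alone lay in the wild-type range. The log2 fold change was -0.49 (SE 0.11, adjusted p = 0.0140), and -0.06 with both terms. Pfkfb3, which makes the activator of phosphofructokinase, was called lower at -0.27 (SE 0.07, adjusted p = 0.0362), a call lost in 8 of the 16 fits that each left out 1 embryo. Without knockout replicate 5 none of Slc2a1, Slc16a3, Pdk1 and Pfkfb3 passed, and the number of members called fell from 20 to 12. The calls over all genes in that fit are not given here. Without knockout replicate 1, 2 or 3 the members called were 18, 14 and 16. Over all genes the 1144 calls then became 1116, 842 and 795. Slc16a1, Pdk3 and Pfkfb4 were not called, with estimates of 0.06, 0.0036 and 0.09. Slc2a3, the transporter GLUT3, had an estimate of -1.02 (SE 0.60, adjusted p = 0.370) that rests on wild-type replicate 6, which held 265 CPM where the other wild types held 16.2 to 31.4 and the knockouts 21.2 to 28.6 CPM.

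Outside glycolysis, 3 hypoxia response genes were lower. Car9 (chromosome 4, 43506966 to 43513729), a cell-surface enzyme that exports acid, was 2.43 to 5.56 CPM (median 3.03) in wild-type and 1.69, 1.55, 1.60, 1.46 and 1.80 CPM in knockout embryos. It had the largest fall of the members, with a log2 fold change of -1.05 (SE 0.21, adjusted p = 0.00545), at a low level. Heterozygotes, at 1.89, 2.08, 2.82, 2.24 and 1.81 CPM, lay above every knockout. Bnip3, which directs mitochondria to autophagy, was called at -0.36 (SE 0.09, adjusted p = 0.0239), with knockout replicate 1 at 27.5 CPM and the other knockouts at 17.9 to 20.0 CPM, and Egln1 at -0.21 (SE 0.06, adjusted p = 0.0407). The Bnip3 call was lost in 4 and the Egln1 call in 11 of the 16 fits that each left out 1 embryo.

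The RNA of Hif1a itself (chromosome 12, 73901375 to 73947530) was 196 to 266 CPM (median 226) in wild-type and 272, 277, 279, 208 and 203 CPM in knockout embryos. The groups overlap, and within both groups the batch 1 embryos were the high ones. The log2 fold change was 0.08 (SE 0.04, adjusted p = 0.206). Vegfa, the main vessel growth factor, had an estimate of -0.24 (SE 0.11, adjusted p = 0.216). The collagen prolyl hydroxylases P4ha1 and P4ha2, the oxidase Ero1l, the peptide hormone gene Adm, Egln3, Ankrd37 and Ndrg1 had estimates between -0.17 and 0.13, and none was called.

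**Figure D3:**
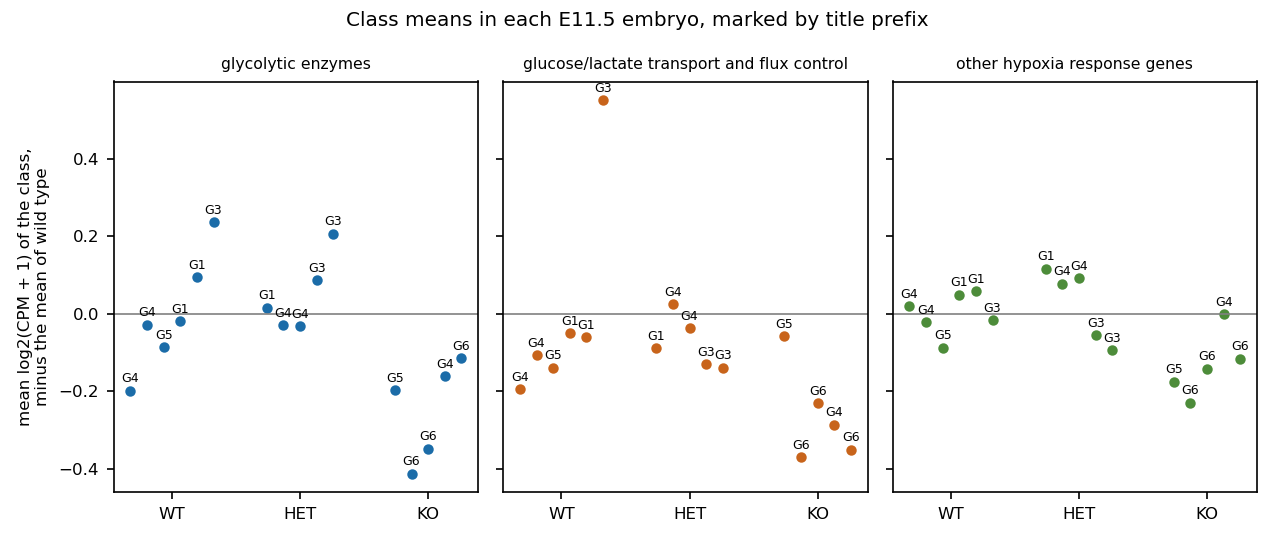
Mean log2(CPM + 1) of each member class in each E11.5 embryo, as a difference from the wild-type mean, with the title prefix over each point. Enzyme means of knockouts ran from -0.41 to -0.11 and of wild types from -0.20 to 0.24, and wild-type replicate 6 (prefix G3) stands alone in the middle panel at 0.55.

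Before any adjustment for batch and sex, the class means of the groups overlapped for the enzymes, as the plot by embryo shows. Single genes separated better: 7 members had every knockout below every wild type (Hk2, Pfkl, Eno1, Ldha, Slc2a1, Pfkfb3 and Car9), where 1.92% of 17362 genes did, and 1 (Eno2) had every knockout above, where 1.18% did. When the 3 knockouts of prefix G6 were left out, a setting added after the data were seen, 0 members were called and 16 of the 37 had an unadjusted p under 0.05, where 11% of all genes did. The median was then -0.22 for all members and -0.26 for the enzymes. Without wild-type replicate 6, 17 members were called and the median was -0.21, and the calls over all genes in that fit are not given here. Of the 10 members named here with full values other than Hif1a, calls of Hk2, Ldha, Eno1, Pfkl, Pgam1, Car9 and Eno2 held in all 16 fits that left out 1 embryo. Those of Slc2a1, Slc16a3 and Pdk1 were lost in 1 each, without knockout replicate 5, at adjusted p = 0.0808, 0.0840 and 0.0854.

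Neighbouring pathways were read from lists of other genes, and their counts stand beside the 4.03% of all genes tested that fell and the 3.06% that rose. Of 15 further glycolysis genes tested, 0 fell and 2 rose in knockout against wild-type kidneys, both hexokinases: Hkdc1 at 0.95 (SE 0.20, adjusted p = 0.00679) and Hk3 at 0.93 (SE 0.21, adjusted p = 0.0117). Both are scarce, at 2.10 to 3.66 and 2.00 to 5.11 CPM in knockouts. Hk3 is known from myeloid cells, and 7 macrophage markers summed to 63.4 to 132 CPM in wild-type and 95.2 to 224 CPM in knockout embryos, with none at 0 and all 7 called higher; their part in the rise was not tested. In the pentose phosphate pathway 1 of 7 fell (Pgd, -0.23), in gluconeogenesis 1 of 3 tested fell (Pcx, -0.22), and in mitochondrial pyruvate entry 0 of 7 passed in either direction. Of 7 genes of HIF subunits and oxygen sensing, 0 passed (edgeR).

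Other known HIF targets went both ways. Of 30 tested, 6 fell and 3 rose, beside 4.03% of all genes tested that fell and 3.06% that rose. The median of these targets was -0.02. The largest changes were a fall of the secreted glycoprotein gene Stc2 (-1.22, SE 0.20), a rise of Ppp1r3c (0.85, SE 0.15), which promotes glycogen storage, and a fall of the HIF-induced inhibitor gene Cited2 (-0.63, SE 0.10). Stc2 ran from 3.03 to 3.74 CPM in wild-type and from 1.16 to 1.95 CPM in knockout embryos, with no overlap.

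Knockout kidneys were also compared with heterozygous ones, a comparison that shares the knockouts with the one above. Of the 37 members 13 were lower, where 2.79% of all genes tested were, and 1 higher (Eno2), where 0.892% were. Among the enzymes 10 of 17 were lower, in transport and flux control 2 of 8, and among the other hypoxia response genes 1 of 12. That 1 was Egln1 (-0.34, SE 0.07, adjusted p = 0.00782), a call lost in 1 of the 16 fits that each left out 1 embryo. The Egln1 call was also lost within either batch alone and with the title prefix in place of batch. Ldha had a log2 fold change of -0.72 (SE 0.12, adjusted p = 0.00316), Hk2 of -0.74 (SE 0.11, adjusted p = 0.00127), Eno1 of -0.50 (SE 0.09, adjusted p = 0.00506), Pfkl of -0.57 (SE 0.11, adjusted p = 0.00875) and Pgam1 of -0.48 (SE 0.11, adjusted p = 0.0204). Eno2 stood at 0.50 (SE 0.13, adjusted p = 0.0434). Pdk1 (-0.53, SE 0.12, adjusted p = 0.0263) and Slc16a3 (-0.51, SE 0.13, adjusted p = 0.0434) were called. These calls varied in firmness: of the 16 fits that each left out 1 embryo, that of Slc16a3 was lost in 12, Eno2 in 10, Pdk1 in 6, Pgam1 in 3 and Pfkl in 1, while those of Ldha, Hk2 and Eno1 held in all. With the title prefix in place of batch, Pfkl (0.0085) and Pgam1 (0.21) had estimates above 0, as did Pdk1 (0.06) with both terms. Slc2a1 (-0.44, SE 0.12, adjusted p = 0.0531), Car9 (-0.42, SE 0.23, adjusted p = 0.356) and Hif1a (-0.01, SE 0.04) were not.

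In this comparison 11 members had every knockout below every heterozygote, against 2.46% of all genes, and 1 had every knockout above, against 1.46%. The count of 14 calls was 5 without knockout replicate 5, 8 without knockout replicate 4, 7 without heterozygous replicate 5 and 8 without heterozygous replicate 2. In the last of these fits the calls over all genes fell as well, from 595 to 333. For the others the calls over all genes are not given here, so the falls are not a result about the members. It was 0 within batch 1 alone (7 genes of all) and 0 within batch 2 alone (56 of all). With the title prefix in place of batch the count was 0, where 602 genes of all were called.

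With 1 copy of Six2 lost, 0 of the 37 members were called at E11.5 by edgeR, where 0.0681% of all genes tested were. DESeq2 called 0 as well, and 2 members had an unadjusted p under 0.05 in edgeR, where 8.25% of all genes did. The median was 0.04 against 0.01 for all genes. Hk2 had an estimate of 0.01 (SE 0.10), Ldha of 0.09 (SE 0.11), Slc2a1 of -0.06 (SE 0.11) and Eno2 of 0.25 (SE 0.12). Car9 had the lowest estimate apart from Slc2a3, at -0.63 (SE 0.21, adjusted p = 0.507). A p that misses the threshold does not show that the levels were alike.

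At E15.5, where the samples include no knockout, 1 member was called in heterozygous against wild-type kidneys. P4ha1, which modifies collagen chains, was 96.0, 90.3, 91.4 and 96.0 CPM in wild-type and 103, 104, 102 and 99.4 CPM in heterozygous specimens. Every heterozygote lay above every wild type. The log2 fold change was 0.12 (SE 0.02, adjusted p = 0.0416), but the call was lost in each of the 8 fits that left out 1 specimen. The share of all genes called was 0.208% higher and 0.362% lower.

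Beside it, 13 of the 37 members had an unadjusted p under 0.05 at E15.5, where 8.17% of all genes did. Estimates above 0 were found for 30 of the 37 members and for 9204 of the 18244 genes tested, and the median was 0.04 against 0.0006 for all genes. In 7 members every heterozygote was above every wild type (Hk2, Pfkl, Pgk1, Eno1, Ldha, Pdk1 and P4ha1), where 3.00% of genes were, and in 1, Slc16a1, every heterozygote was below, where 2.23% were. Hk2 was 59.1, 62.5, 63.9 and 62.6 CPM in wild-type and 65.8, 68.5, 70.2 and 73.2 CPM in heterozygous specimens, a log2 fold change of 0.16 (SE 0.03, adjusted p = 0.104). Slc16a1 (MCT1), the broadly expressed lactate carrier, had one of -0.15 (SE 0.03, adjusted p = 0.0808). DESeq2 called 3 members, Hk2 and P4ha1 higher and Slc16a1 lower. The shares of all genes called that are given for E15.5 are those of edgeR and cannot be set beside this count. In the heterozygous comparison at E11.5, DESeq2 called 43 genes of all where edgeR called 11. The nephron progenitor markers summed to 993 to 1034 CPM in wild-type and 875 to 946 CPM in heterozygous specimens, with 3 of 9 called lower and 1 higher. The ureteric bud markers summed to 799 to 861 and 862 to 913 CPM, with 0 of 7 called by edgeR. Neither pair of ranges overlaps, no marker was at 0, and their part in the members' differences was not tested.

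The difference of the heterozygous effect between the stages was tested as an interaction over all 24 specimens. edgeR called 0 of the 37 members, where 0.00576% of all genes were called, 1 member had an unadjusted p under 0.05, where 3.42% of all genes did, and DESeq2 called 0. The estimate was 0.14 (SE 0.13) for Hk2, 0.09 (SE 0.09) for P4ha1 and -0.24 (SE 0.12) for Slc16a1. No difference between stages was thus detectable for a member.

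Between E11.5 and E15.5 the members of several isozyme and carrier pairs moved in opposite directions or by different amounts. In wild-type kidneys 10 members rose and 13 fell with stage, beside 34% of all 17362 genes tested that rose and 32.1% that fell, so the share of members that moved was near that of all genes. The stages were sequenced as separate sets of libraries, and stage and set cannot be told apart. The 12 other hypoxia genes gave 5 rises and 2 falls, transport and flux control 1 rise and 5 falls, and the enzymes 4 rises and 6 falls.

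The largest rises were in 2 genes known to respond to low oxygen. Egln3 ran from 1.41 to 2.38 CPM (median 1.97) at E11.5 and was 14.1, 14.5, 13.9 and 14.7 CPM at E15.5, a log2 fold change of 2.68 (SE 0.17, adjusted p = 2.98e-12). Ndrg1, a gene of differentiated epithelia and of growth arrest, ran from 5.70 to 7.95 CPM (median 7.01) and then stood at 38.0, 31.9, 37.6 and 34.7 CPM, a log2 fold change of 2.23 (SE 0.13, adjusted p = 8.11e-13). Neither had any overlap between the stages, which is common here. Every E15.5 wild type was above every E11.5 wild type in 24.2% of 17362 genes and in 8 of the 37 members. Every one was below in 19.9% of genes and in 11 members. Vegfa rose by 0.43 (SE 0.10, adjusted p = 0.000455).

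Isozymes and carriers moved apart. Slc16a1 rose by 0.85 (SE 0.08, adjusted p = 5.58e-09), from 71.3 to 101 CPM (median 85.9) at E11.5 to 152, 152, 161 and 158 CPM at E15.5. Slc16a3 fell by 1.36 on the log2 scale (SE 0.12, adjusted p = 9.45e-10), to 29.8, 25.9, 31.1 and 29.8 CPM. Slc16a1 thus went from 57.4 ± 4.81% (SD, n = 6) to 86.6 ± 0.719% (SD, n = 4) of the sum of both carriers per kilobase.

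Among the enzymes, Ldhb rose by 0.74 (SE 0.08, adjusted p = 6.75e-08), from 96.8 to 135 CPM (median 129) to 202, 207, 203 and 201 CPM. Ldha did not pass, at 0.01 (SE 0.10), and the share of Ldhb in both subunits went from 30.0 ± 2.63% to 41.2 ± 0.629%. Eno2 rose by 0.77 (SE 0.11, adjusted p = 1.68e-06), to 11.03, 9.57, 10.5 and 10.4 CPM, while Eno1 fell by 0.35 (SE 0.08). The neuron and glia markers summed to 16.3 to 17.8 CPM at E15.5, below every E11.5 wild type, and their part in the change of Eno2 was not tested. Hk1 rose by 0.46 (SE 0.05) and Hk2 fell by 0.64 (SE 0.10, adjusted p = 4.73e-06), to 59.1, 62.5, 63.9 and 62.6 CPM, so that Hk2 went from 63.8 ± 2.55% to 45.0 ± 1.17% of both hexokinases per kilobase.

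**Figure D4:**
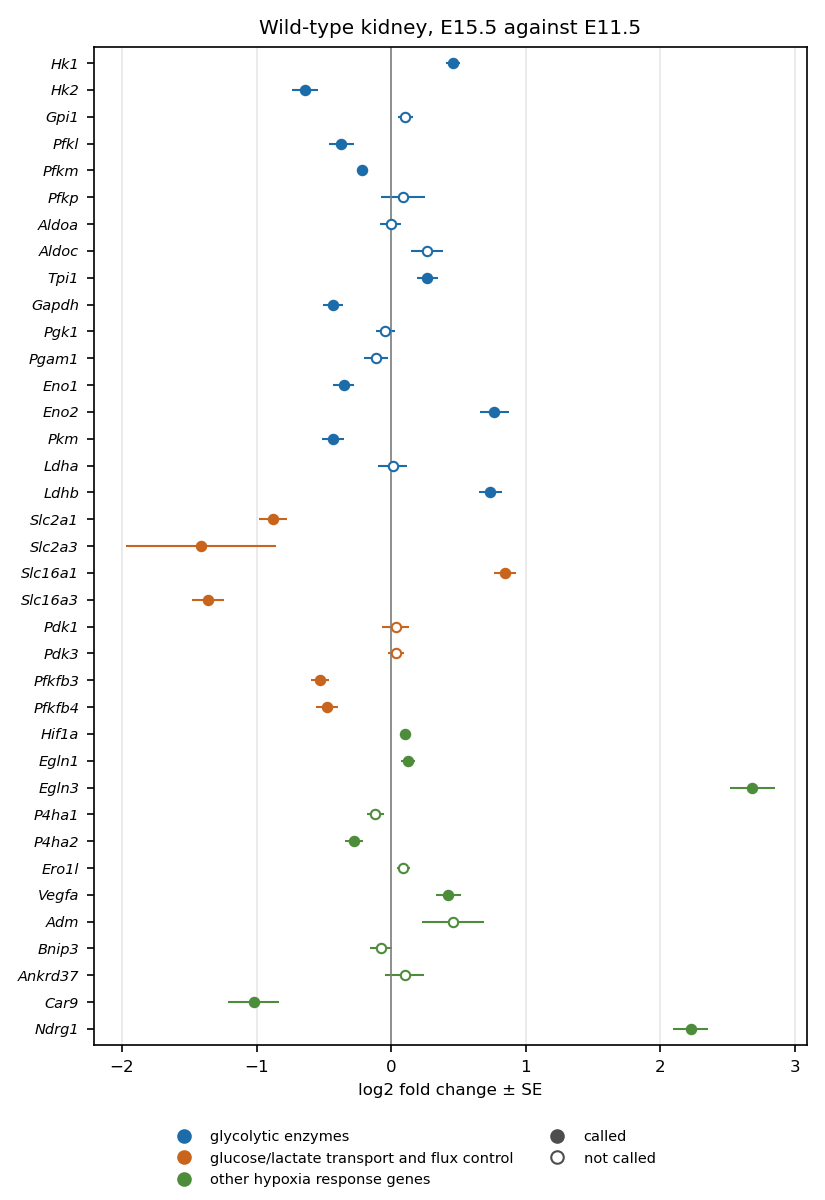
Log2 fold changes with SE of the 37 members in wild-type kidneys at E15.5 against E11.5; filled points passed the test. Egln3 (2.68) and Ndrg1 (2.23) lie far to the right, and Slc2a3 (-1.41, with a wide SE) and Slc16a3 (-1.36) farthest to the left.

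Slc2a1 fell by 0.88 (SE 0.10, adjusted p = 1.32e-07), to 49.7, 43.5, 42.8 and 46.3 CPM at E15.5. These values were below every E11.5 wild type, as was so for 19.9% of all genes. Car9 fell by 1.02 (SE 0.19, adjusted p = 6.33e-05), to 1.59, 1.71, 1.76 and 1.52 CPM. Slc2a3 fell by 1.41 (SE 0.56, adjusted p = 0.0299), to 17.4, 16.9, 18.1 and 17.2 CPM, but by 0.39 (SE 0.11, adjusted p = 0.00495) without wild-type replicate 6, and it was not called against the E11.5 embryos of batch 1 alone (-0.15, adjusted p = 0.162). Hif1a rose by 0.10 (SE 0.03, adjusted p = 0.00877), but its estimate was -0.10 against batch 1 alone. The other 4 largest falls, of Slc16a3, Car9, Slc2a1 and Hk2, and the 5 largest rises were called against either E11.5 batch alone.

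Other metabolic genes changed over the same interval, and the counts below stand beside the 34% of all genes that rose and the 32.1% that fell. All 7 genes of mitochondrial pyruvate entry rose, led by the pyruvate carrier Mpc2 (1.29, SE 0.07), Pdha1 of pyruvate dehydrogenase (0.67, SE 0.05) and the carrier Mpc1 (0.55, SE 0.11). In gluconeogenesis 5 of 7 rose. Pck1, its rate-limiting enzyme, was at most 0.178 CPM at E11.5 and 15.96 to 24.3 CPM at E15.5, and Fbp1 was at most 0.0472 CPM and then 7.41 to 10.2 CPM. The summed level of 5 proximal tubule markers, a segment known for gluconeogenesis, was 33.6 to 48.2 CPM at E11.5 and 588 to 668 CPM at E15.5, and its part in these rises was not tested. Of 7 HIF subunit and oxygen sensing genes 3 fell: Hif1an (-0.42, SE 0.06), Egln2 (-0.38, SE 0.05) and Arnt2 (-0.34, SE 0.06). Of 30 other HIF targets 11 rose and 12 fell, and the largest changes were rises of Ppp1r3c (3.17, SE 0.11), the matrix cross-linking enzyme gene Lox (3.01, SE 0.12) and the carbonic anhydrase gene Car12 (2.84, SE 0.17). Of 17 further glycolysis genes 8 rose and 3 fell. The glucose transporter gene Slc2a2 went from at most 0.530 CPM to between 18.1 and 21.04 CPM, and Hkdc1 from between 0.795 and 2.27 CPM to between 7.94 and 8.81 CPM. In the pentose phosphate pathway 4 of 7 rose and 1 fell.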

How the data were processed

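The authors deposited 1 table of raw read counts per gene for 33 libraries of whole-kidney RNA, with a gene length, a value in bases used here only to set levels per kilobase. STAR 2.4.0h1, featureCounts 1.4.6 and build mm10 are named, per the submitters' processing notes. Which annotation was used, whether counting was stranded and how reads with several hits were treated is not given in the sources used here. Runs of a specimen were summed, which left 24 specimens; in all 9 specimens run in both batches, a run correlated best with the other run of its own specimen (0.196 to 0.691, against at most 0.172). At E11.5 the replicate number in the titles equals the batch, so batch was the replicate block of the fits there. That number pairs no embryos beyond the shared batch label.

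Genes were kept by filterByExpr (minimum count 10, minimum total 15), scaled with TMM and tested with edgeR 4.0.16 (quasi-likelihood, limma 3.58.1, R 4.3.3), with Benjamini-Hochberg adjustment over all genes tested and calls at an adjusted p under 0.05. Terms were genotype, sex and batch at E11.5. The E15.5 fit had genotype and sex, and the fits for stage and interaction took all 24 specimens with sex and batch. CPM values use 1 scaling of all 24 specimens. Groups follow the labelled genotype and age. DESeq2 1.42.0 and other settings were alternatives. The scripts were tested on simulated counts. Positions are from GENCODE M21 (GRCm38, which is mm10), promoters from RefSeq.

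The members and all gene lists were chosen with earlier results of these data known. Full values are given for the 10 members with the largest change among those called in knockout against wild type, any member called in a heterozygous comparison, Hif1a, and the 5 largest rises and falls with stage; of each other list at most 3 called genes with the largest change are named in a comparison. Of the 178 listed genes, 2 were found under an older symbol.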

Additional observations from a re-analysis of the deposited data

Results flagged for a closer look

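In 185 sets of values (37 members in each of the 5 groups) the highest or lowest specimen was set against the others by Dixon's test at the 95% level, which chance passes in about 1 of 20 sets; 12 passed. Wild-type replicate 6 at E11.5 was far above the other wild types in 4 members: Slc2a3 at 265 CPM (next 31.4), Hk2 at 117 CPM (next 94.5), Pfkl at 436 CPM (next 321) and Slc2a1 at 110 CPM (next 82.3). This is the embryo with high Krt5, Trp63 and Zic1, and the part of that difference in these 4 values was not tested. Wild-type replicate 1 at E11.5 was high in Car9, at 5.56 CPM (next 3.40), and low in Ldhb, at 96.8 CPM (next 121), and wild-type replicate 3 was low in Pfkp, at 17.6 CPM (next 23.8).

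Knockout replicate 1 had 27.5 CPM of Bnip3 (next 20.0), and knockout replicate 4 had 35.8 CPM of P4ha2 (next 29.3). Heterozygous replicate 1 at E11.5 had 2.79 CPM of Adm (next 1.67). At E15.5, heterozygous replicate 1 was high in Bnip3, at 27.3 CPM (next 25.6), and heterozygous replicate 4 low in Tpi1, at 389 CPM (next 412).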

How the results depend on the processing

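In knockout against wild type, the 20 calls became 10 with no replicate block (batch left out), 1 within batch 1, 2 within batch 2, 5 without libraries above 5% ribosomal counts, 0 with the title prefix in place of batch, 0 with prefix and batch and 0 without the 3 G6 knockouts. The last 2 settings were chosen after seeing the data. In knockout against heterozygous, the 14 calls became 4, 0, 0, 8, 0, 0 and 0 in that order. Over all genes, the 1144 calls against wild type became 439, 265, 168, 349, 492, 73 and 214, and the 595 against heterozygous 154, 7, 56, 299, 602, 5 and 60. Leaving out each embryo in turn gave 12 to 20 and 5 to 17 calls. The median over members kept its sign in these settings, at -0.10 and -0.05 with the prefix in place of batch. That fit turned the sign, in knockout against wild type, of Pkm (0.00185) and Tpi1 (0.0102), and, in knockout against heterozygous, of Aldoa (0.00506), Pfkl (0.00853), Pgam1 (0.21), Pkm (0.15) and Tpi1 (0.15). With prefix and batch, Pdk1 turned to 0.0552 in knockout against heterozygous. Of the 5 prefixes, G6 holds knockouts alone, so no comparison can be made within it. Settings that leave out embryos have fewer by construction; otherwise the cause was not tested. In heterozygous kidneys at E15.5, the 1 call became 3 with DESeq2, 3 with no low-count filter, 0 without sex, 0 in the batch 2 runs and 0 to 0 with each specimen left out. At E11.5 and for the interaction, 0 members were called in any setting. The 23 stage calls ranged from 20 to 26, and Hif1a turned to -0.10 (adjusted p = 0.0288) against E11.5 batch 1 alone. Calls over all genes in these E15.5 and stage settings are not given here, so the member counts cannot be set beside them.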

Other observations

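Egln3 was not called in heterozygous kidneys at E11.5, but its values there fell into 2 levels: 3.13, 3.57 and 3.71 CPM in heterozygous replicates 1 to 3, and 1.48 and 1.67 CPM in replicates 4 and 5, with wild types at 1.41 to 2.38 CPM. Heterozygous replicates 1 to 3 were male, of prefix G1 or G4, and run in batch 1, replicate 1 also in batch 2. Replicates 4 and 5 were female, of prefix G3, and run in batch 2. The levels thus cannot be told apart from sex, prefix and batch. Pfkp, also not called, ran from 15.5 to 43.1 CPM over the 5 knockouts, a wider range than the 17.6 to 27.1 CPM of the wild types.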
